A study of Mus musculus with 24 samples.

Results

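The retinoic acid receptors and one of their carriers were followed by ATAC-seq, an assay in which a transposase inserts sequencing adapters into DNA that is open, so that read counts report chromatin accessibility. The members were the 164 peaks, of 147020 in the deposited table, whose annotated gene was Rara, Rarb, Rarg, Rxra, Rxrb, Rxrg or Crabp1. Rarb held 95 of them, Rxrg 20, Rxra 19, Rara 18, Crabp1 6, Rarg 5 and Rxrb 1. All 164 were among the 146155 peaks that passed a filter on low counts. A peak is named for the gene whose start is closest, and may act on another gene or on none. The peaks of 1 gene share a locus and are not replicates of each other.

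The nuclei came from striatum of C57BL/6 mice aged 12 months. Neuronal nuclei were stained for NeuN and sorted, 50000 per library, so the data describe a mixture of striatal neuron types. There were 24 libraries in 4 genotypes, each with 3 female and 3 male animals. WT mice are the wild type. Q140 mice are heterozygous for the knock-in allele labelled Q140, which serves as a model of Huntington's disease and carries an expanded CAG repeat in Htt, the huntingtin gene. Msh3KO mice lack both copies of Msh3, a DNA mismatch repair gene needed for CAG repeats to lengthen in somatic cells. Q140_Msh3KO mice are heterozygous for Q140 and lack Msh3. The labels give no repeat lengths, so the length of the repeat in each animal was not analysed here.

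Retinoic acid, made from vitamin A, binds the nuclear receptors RARα, RARβ and RARγ, which sit on DNA as pairs with a retinoid X receptor (RXR). Such pairs recognise direct repeats of a short half-site and recruit corepressors without ligand and coactivators with it. Rarb and Rxrg are the family members best known from striatal projection neurons, and mice without Rarb have defects of striatal development and of movement. Crabp1 encodes a cytoplasmic protein that binds retinoic acid and limits how much of it reaches the receptors.

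The proximal promoter of Rarb holds a well-known retinoic acid response element, through which retinoic acid induces the gene itself. It is shown because the peak on it can be set against the intronic peaks of the same gene. The 100 bases before the proximal start, from RefSeq on GRCm38.p6, minus strand, lie at chr14:16575477-16575576, and capitals mark the 2 half-sites of the element. Below them stands the element found in the same way before Cyp26a1, which encodes an enzyme that degrades retinoic acid, at chr19:37697776-37697792 and on the strand opposite to that gene.
Rarb, bases before the proximal start: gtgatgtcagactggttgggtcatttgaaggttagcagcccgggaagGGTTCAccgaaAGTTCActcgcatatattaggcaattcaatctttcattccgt
Cyp26a1, element: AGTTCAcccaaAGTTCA

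The Rarb element spans bases -53 to -37 from the start, and its second half-site is the same as both half-sites before Cyp26a1. Promoter windows of 300 bases were searched on both strands for direct repeats, with either half-site being AGGTCA, the variant AGTTCA, the variant GGGTCA or the variant GGTTCA, and with 1, 2 or 5 bases between them. A spacer of 5 bases was found in 32 of 32851 windows (0.0974%), a spacer of 2 in 88 (0.268%) and a spacer of 1 in 73 (0.222%). All 7 member genes matched the promoter table, with 14 windows, of which only that of Rarb held any of these repeats. A match is a string of letters and not a measured binding site.

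Among library features that touch what follows, total counts in peaks ran from 4372251 to 11736557, the depth that sets how small a change could be seen. The library Q140 F2, labelled female, had 1.47% of its counts on the X chromosome, where the other females had 1.72 to 1.94% and the males 1.49 to 1.59%. In Q140_Msh3KO M1 the 10 largest peaks took 12.7% of counts. Without both libraries, 1 call was lost and 1 gained among 58 named member results, and 4 were lost among 63 pathway results, each given where it stands. Promoter peaks of 4 pan-neuronal genes summed to between 92.3 and 153 CPM (counts in the peak relative to 1e+06 counts of the scaled library) in every library, and those of 6 of 8 oligodendrocyte genes to between 15.2 and 27.1 CPM. Of 38 promoter peaks in 8 marker lists 0 were called in Q140 against WT, where 3.27% of all promoter and 5′ UTR peaks were. Striatal projection neurons had 15 of these peaks (11 of 12 genes), but astrocytes had 2 (2 of 7 genes), and microglia and cortical neurons 1 each. In bulk nuclei, fewer cells of a type and less accessibility per cell cannot be told apart.

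Rarb, the largest of the 7 loci by number of peaks, lost accessibility in Q140 striatum at scattered intronic sites, while the peak at its proximal start did not pass the test. Of its 95 peaks, 13 were lower and 0 higher in Q140 than in WT (13.7%), in edgeR's quasi-likelihood test with Benjamini-Hochberg adjustment over all tested peaks, against 6.11% of all tested peaks that were lower and 4.2% that were higher. The median log2 fold change of the Rarb peaks was -0.19, and 62 of 95 (65.3%) lay below 0, against a median of -0.01 and 51% below 0 for all tested peaks. Without WT F3 the count was 8 of 95, when 4.02% of all tested peaks were lower. The 7 genes together had 15 lower and 1 higher peak of 164 (9.76%), a share close to the 10.3% of all tested peaks that were called in either direction. With DESeq2 size factors that split was 15 lower and 3 higher, and with scaling by total counts 16 lower and 4 higher. Without Q140 F2 and Q140_Msh3KO M1 it was 17 lower, 14 of them at Rarb, and 2 higher.

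**Figure D1:**
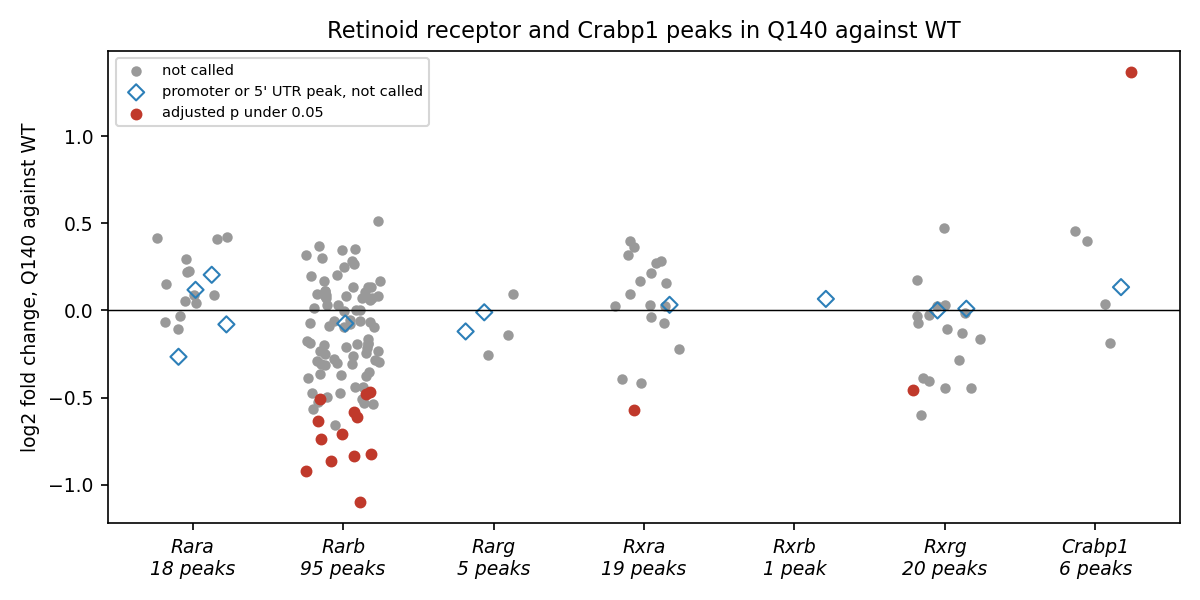
Log2 fold change of accessibility in Q140 against WT (vertical axis) for each of the 164 peaks, by gene (horizontal axis, with random sideways spread); red points passed the test at an adjusted p of 0.05 and open diamonds are promoter and 5′ UTR peaks. The 13 called Rarb peaks all lie below 0, 1 Crabp1 peak lies at 1.37, and all 12 diamonds lie between -0.27 and 0.20.

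The Rarb peak with the smallest p, chr14:16746598-16747446 lies in an intron, at -171546 bases from the proximal start. Its accessibility in WT was 11.8 CPM in the lowest library, 15 at the median and 15.6 in the highest. In Q140 it was 5.08, 7.08 and 7.64 CPM, so the highest Q140 library lay below the lowest WT library. The log2 fold change was -1.10 ± 0.14 (SE, n = 6 and 6, edgeR adjusted p = 5.2e-07), and the median raw count was 109 in WT and 59.5 in Q140. In Msh3KO the same values were 10.3, 11.6 and 17.8 CPM, and in Q140_Msh3KO 8.04, 11.6 and 12.3 CPM. Both of these groups overlapped WT, and the Q140_Msh3KO libraries all lay above those of Q140.

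This peak belongs to the run of called Rarb peaks, with gaps under 10 kb, that holds the most calls. Within 17.04 kb, from 16730412 to 16747446, 4 of 6 Rarb peaks were lower, where 6.11% of all tested peaks were. The ends of the run were set by the called peaks, so this share supports nothing by itself. At chr14:16737839-16738186 the WT libraries ran from 5.72 to 7.9 CPM (median 6.55) and the Q140 libraries from 2.36 to 4.09 CPM (median 3.69), without overlap, and the log2 fold change was -0.92 ± 0.15 (SE, edgeR adjusted p = 1.85e-05). At chr14:16741009-16741948, one of the most accessible Rarb peaks, WT ran from 19.8 to 23.1 CPM (median 22.1) and Q140 from 12.9 to 16.1 CPM (median 14.4). Its groups did not overlap either, and it fell by 0.58 ± 0.12 on the log2 scale (SE, edgeR adjusted p = 0.000553). The remaining one, chr14:16730412-16730808, was the least accessible called Rarb peak in WT, at 3.95 ± 1.3 CPM (SD, n = 6), and its log2 fold change was -0.83 ± 0.21 (SE, edgeR adjusted p = 0.00614). Its groups overlapped, with 4 of 6 Q140 libraries below the lowest WT library, and without WT F3 its adjusted p was 0.0525.

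A second group of called peaks lay at the far end of the gene, inside the first intron of the long transcript and within 35302 bases of the distal start. The peak chr14:17054498-17054854 held 4.53, 5.58 and 6.39 CPM (lowest, median, highest) in WT and 2.36, 3.06 and 4.13 CPM in Q140. The groups did not overlap, and the log2 fold change was -0.86 ± 0.16 (SE, edgeR adjusted p = 0.000203). Its neighbour chr14:17057170-17058133 was the most accessible called peak of the locus, with 20.4, 26 and 31.6 CPM in WT and 12.4, 19.3 and 22 CPM in Q140. There the groups overlapped, the log2 fold change was -0.51 ± 0.16 (SE, edgeR adjusted p = 0.0293), and the call was lost without any one of 8 of the 12 WT and Q140 libraries, with adjusted p-values up to 0.122. The third, chr14:17046687-17047371, fell by 0.48 ± 0.14 (SE, edgeR adjusted p = 0.0198) with no overlap between groups, and lost its call without any one of 4 libraries.

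The other 6 called Rarb peaks stood alone along the gene. On the side of the proximal start that is downstream in the direction of transcription lay chr14:16494404-16494871 (log2 fold change -0.71) and chr14:16519019-16519503 (-0.64). Between the proximal start and the first intron of the long transcript lay chr14:16592454-16592949 (-0.84), chr14:16677615-16678088 (-0.61) and chr14:16717613-16718466 (-0.47). The call at 16519019 was lost without any one of 5 libraries (adjusted p up to 0.113) and that at 16717613 without any one of 7 (up to 0.108). The last, chr14:16897842-16898592 (-0.74), lies in the first intron of the long transcript. All 6 Q140 libraries were below the WT median at each of the 13 called peaks, and at 7 of the 13 all 6 were below the lowest WT library. Over the 7 genes, 9 of 164 peaks had no overlap between the ranges of WT and Q140, 7 lower and 2 higher (5.49%), against 5.07% of all tested peaks.

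By segment, 7 of 35 peaks between the proximal start and the first intron of the long transcript were lower, 4 of 39 in that intron, 2 of 20 at or downstream of the proximal start, and 0 of 1 beyond the distal start. Of all tested peaks 6.11% were lower. The first segment holds the run of 4 called peaks described above, and a difference between segments was not tested. The called peaks spread over 563.7 kb of the 613.8 kb that the 95 peaks span. They were wider than the other Rarb peaks (median 496 against 349 bases), more accessible in WT (median 7.06 against 2.89 CPM) and measured with a smaller error (median SE 0.16 against 0.22). The part of width and counts in which peaks passed was not tested. Outside the locus, 1 of 34 peaks within 1 Mb before the first Rarb peak was lower (2.94%) and 1 higher, and 4 of 38 within 1 Mb after the last were lower (10.5%) and 2 higher, the latter peaks being named for Thrb or Pou5f1-rs6.

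**Figure D2:**
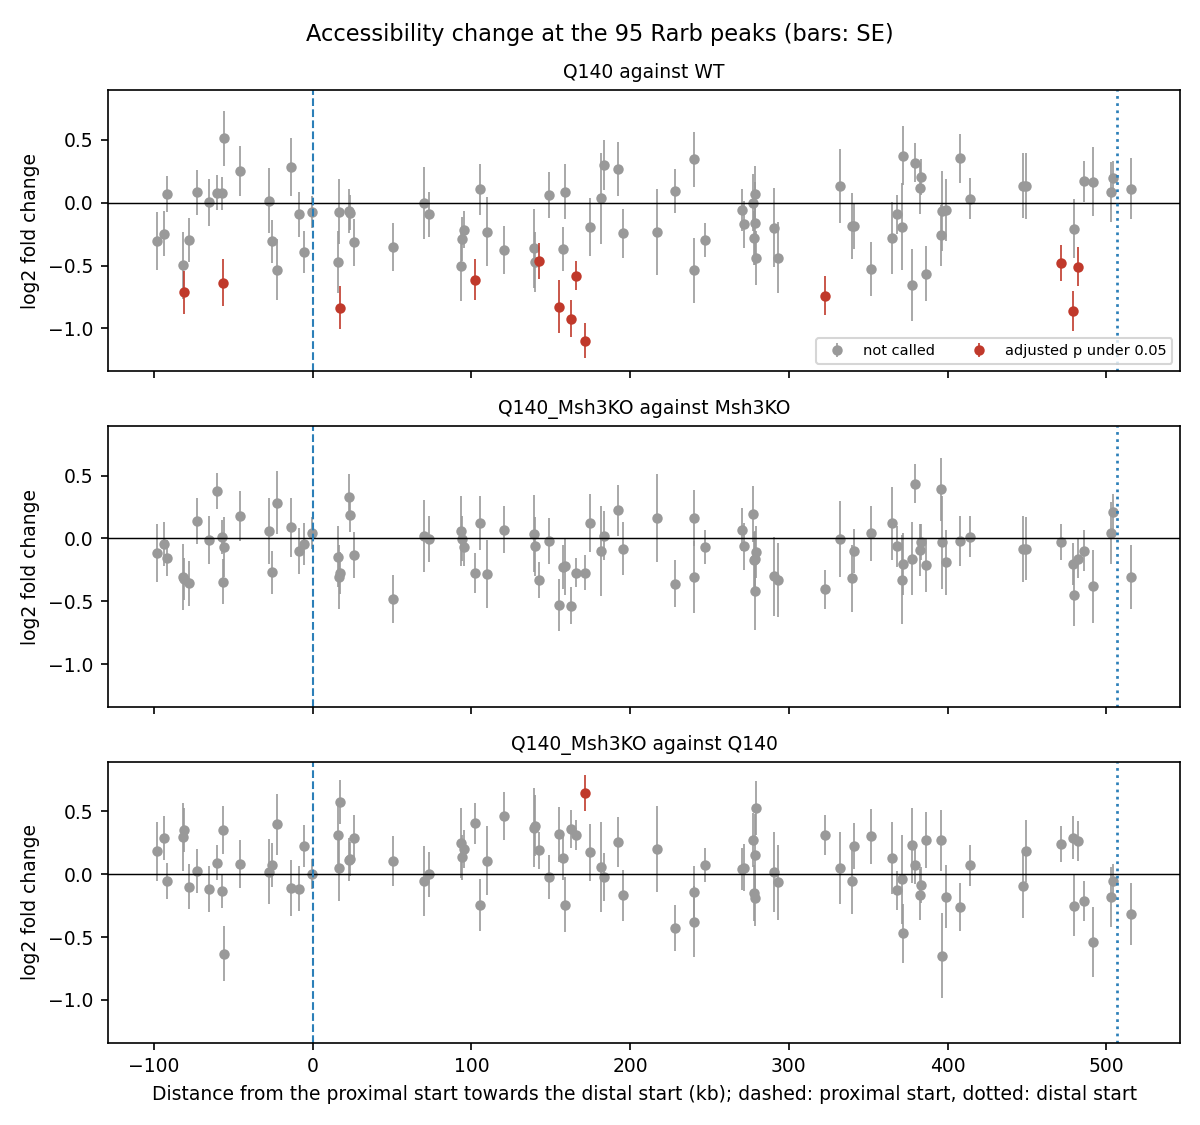
Log2 fold change with its SE (vertical axis) at each of the 95 Rarb peaks against distance from the proximal start in kb (horizontal axis, dashed line at the proximal and dotted line at the distal start), for 3 comparisons; red points passed the test. Called peaks in Q140 against WT stand on both sides of the proximal start and near the distal start, none is called in Q140_Msh3KO against Msh3KO, and 1 is called, at 0.65, in Q140_Msh3KO against Q140.

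At the proximal start itself, the peak chr14:16574765-16575871, which covers the response element printed above, did not pass the test. It held 18.9, 23.7 and 30.6 CPM (lowest, median, highest) in WT, 19.1, 22.3 and 30.8 in Q140, 18.2, 21.3 and 29.7 in Msh3KO, and 20.2, 23.1 and 25.4 in Q140_Msh3KO. The 4 ranges overlapped almost entirely. The log2 fold change in Q140 against WT was -0.07 ± 0.13 (SE, edgeR adjusted p = 0.83). Over the 7 genes, 0 of 12 promoter and 5′ UTR peaks were called, with log2 fold changes from -0.27 to 0.20, against 3.27% of all such peaks tested, while 16 of 152 other member peaks were called against 10.9% of all other peaks tested. The smallest adjusted p among the 12 was 0.329.

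The promoter peaks differed in level per kilobase of peak. In WT the single Rxrb peak was the most accessible, at 34.6 ± 3.4 CPM per kb (SD, n = 6), followed by the Rarg promoter peak chr15:102246235-102247364 at 30.3 ± 4.5 and the proximal Rarb peak at 21.8 ± 4.14 CPM per kb. Rxrb and Rarg overlapped in range (32 to 41.4 and 25.6 to 36.7 CPM per kb), as did the Rarb peak and the first Rara promoter peak (17.1 to 27.6 and 17.6 to 21.4 CPM per kb). The 3 lowest of the 12 were the Rxra promoter at 7.45 ± 1.62, the last Rara promoter peak at 7.2 ± 2.96 and the Crabp1 promoter at 7.03 ± 0.909 CPM per kb, which overlapped each other.

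Rara encodes RARα, the most widely expressed of the 3 retinoic acid receptors, and none of its 18 peaks passed the test in Q140 against WT. Of all tested peaks 10.3% passed. Its 4 promoter peaks had log2 fold changes of -0.08, -0.27, 0.20 and 0.12, with adjusted p-values of 0.329 or more. The whole set ran from -0.27 to 0.42 with a median of 0.10, and 2 of 18 had an unadjusted p under 0.05. One of these, the intronic peak chr11:98941962-98942429, held 4.46 to 7.41 CPM in WT and 7.49 to 8.98 CPM in Q140, so the groups did not overlap, but its log2 fold change of 0.41 ± 0.14 missed the threshold (SE, edgeR adjusted p = 0.0572). That peak also lies in part over Gm46294, a gene model that overlaps Rara. Rarg, which encodes RARγ, had 0 of 5 peaks called and 0 with an unadjusted p under 0.05, with log2 fold changes from -0.25 to 0.09.

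The retinoid X receptors pair with the retinoic acid receptors and with many other nuclear receptors. Rxra, for RXRα, had 1 of 19 peaks lower and 0 higher in Q140 against WT (5.26%). Of all tested peaks 6.11% were lower and 4.2% higher, so this count is near the background. At chr2:27693048-27694381, an intronic peak, the WT libraries held 16.6, 19 and 23.7 CPM (lowest, median, highest) and the Q140 libraries 10.7, 13.1 and 16.7 CPM. The ranges overlapped slightly, with 5 of 6 Q140 libraries below the lowest WT library, and the log2 fold change was -0.57 ± 0.12 (SE, edgeR adjusted p = 0.000869). Msh3KO, at 15.8, 20.8 and 23.3 CPM, overlapped WT, whereas Q140_Msh3KO, at 13.7, 14.7 and 15.5 CPM, lay below all WT libraries. In Q140_Msh3KO against Msh3KO this peak had a log2 fold change of -0.48 ± 0.12 (SE), with an edgeR adjusted p of 0.0932 that missed the threshold.

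A second Rxra peak, chr2:27739749-27740983, the most accessible of that gene by the mean over all 24 libraries though not in WT, held 14.1, 16.9 and 19.8 CPM in WT and 19.3, 20 and 25.8 CPM in Q140. Its log2 fold change of 0.32 ± 0.11 did not pass in edgeR (SE, adjusted p = 0.0662) and did in DESeq2, with scaling by total counts and with a count minimum of 30 (adjusted p down to 0.0116). The Rxra promoter peak had a log2 fold change of 0.03 ± 0.23 (SE, edgeR adjusted p = 0.968). Rxrb, for RXRβ, had a single peak, at its promoter, with 35, 36.6 and 45.3 CPM in WT and 33.7, 40.6 and 44.5 CPM in Q140. It did not pass the test (log2 fold change 0.07 ± 0.11, SE, edgeR adjusted p = 0.824), and it reaches over the start of the adjoining gene Slc39a7.

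Rxrg encodes RXRγ, a receptor of striatal projection neurons. Near the background of all tested peaks (6.11% lower, 4.2% higher), it had 1 of 20 peaks lower and 0 higher (5%). That peak, and the most accessible peak of the gene, lie in intergenic DNA before the start. At chr1:167572574-167573490 the WT libraries held 14.3, 17.6 and 22 CPM and the Q140 libraries 10.9, 13.2 and 16.7 CPM, with overlap, and the peak fell by 0.46 ± 0.13 (SE, edgeR adjusted p = 0.0158). The call was lost without any one of 5 libraries, with adjusted p-values up to 0.0927. At chr1:167559985-167560917, the most accessible, WT held 24.4, 33.4 and 35.5 CPM and Q140 15.2, 23.8 and 29.5 CPM. There the log2 fold change was -0.44 ± 0.15 (SE) with an edgeR adjusted p of 0.0546. It passed under 8 of 11 other settings, among them the fit without Q140 F2 and Q140_Msh3KO M1, with adjusted p-values from 0.0165 to 0.0661 over the 11. The 5′ UTR peak of Rxrg, chr1:167598151-167599255, held 17.2 CPM at the median in WT and 17.5 in Q140, and its log2 fold change was 0.01.

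Crabp1, the carrier, held the only member peak called as more accessible in Q140. At chr9:54779289-54779731, in intergenic DNA 14762 bases past the start, the WT libraries held 1.1, 1.75 and 3.36 CPM and the Q140 libraries 3.54, 5.15 and 6.38 CPM. Every Q140 library exceeded every WT library, and the log2 fold change was 1.37 ± 0.23 (SE, edgeR adjusted p = 3.64e-05), on median counts of 13.5 and 47. Msh3KO held 1.33, 2.03 and 2.75 CPM, like WT, and Q140_Msh3KO 1.39, 3.33 and 4.53 CPM, overlapping both WT and Q140. The Crabp1 promoter peak, chr9:54764309-54765117, held 4.53, 5.75 and 6.57 CPM in WT and 4.72, 6.52 and 8.22 CPM in Q140, and did not pass the test (log2 fold change 0.13 ± 0.15, SE, edgeR adjusted p = 0.711).

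**Figure D3:**
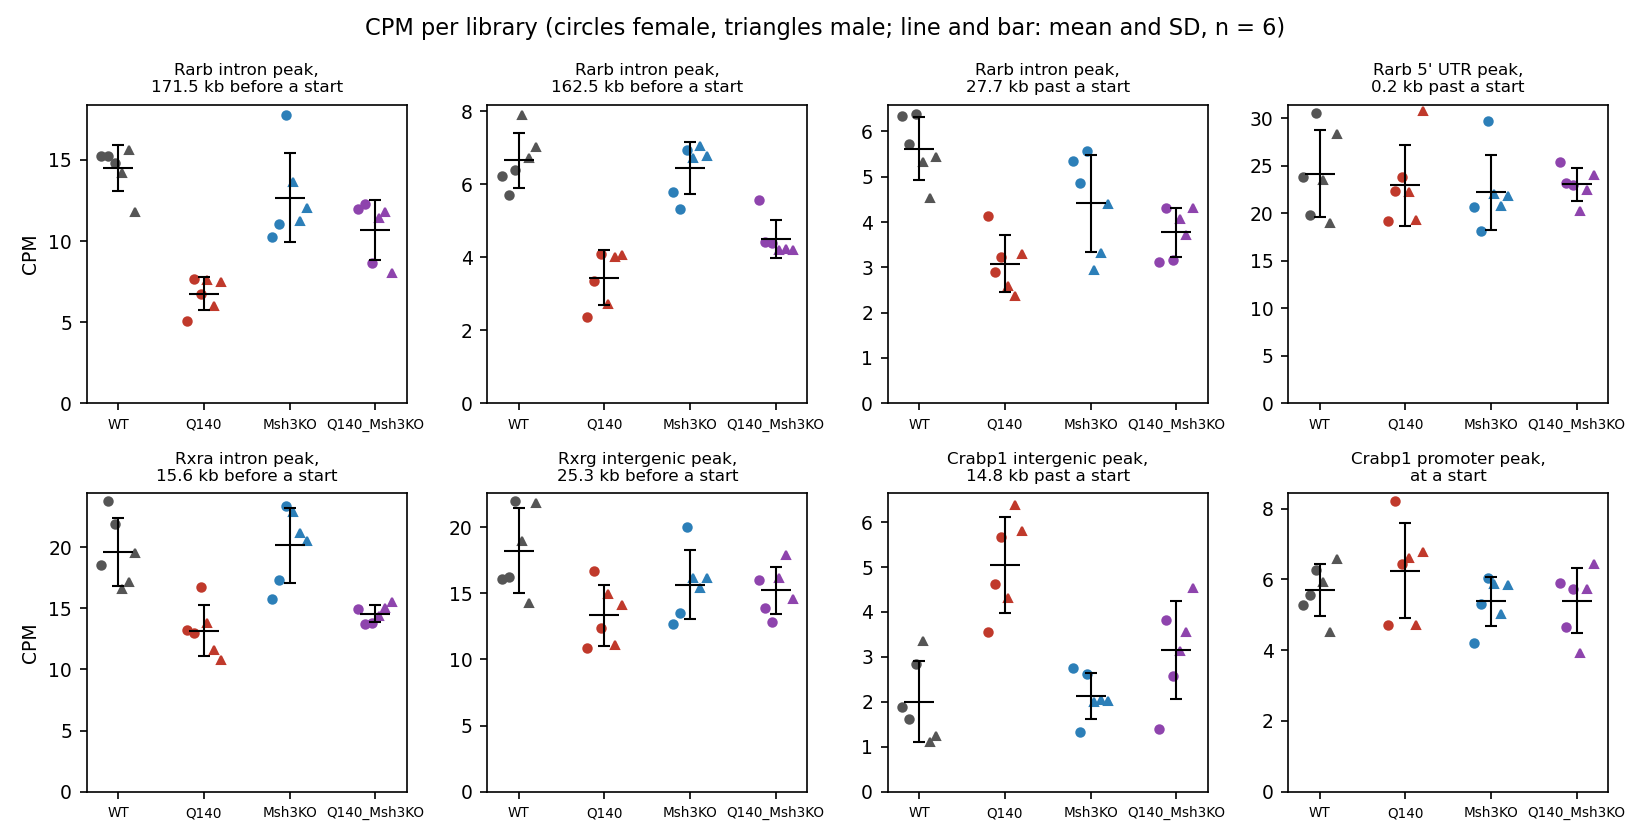
CPM (vertical axis) in each of the 24 libraries by genotype (horizontal axis) at 8 member peaks, circles for females and triangles for males, with the mean and SD of 6 as a line and bar. In the first 3 Rarb panels every Q140 library lies below every WT library, in the Crabp1 intergenic panel every Q140 library lies above every WT library, and in the 2 panels at a start the genotypes overlap.

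Summed over all peaks of a gene, Rarb held 437 to 541 CPM in WT (median 479) and 372 to 469 CPM in Q140 (median 408). Crabp1 held 14.4 to 18.4 CPM in WT (median 16.3) and 19.4 to 23.2 CPM in Q140 (median 20.6), without overlap. Both sums include the called peaks of the gene and are not separate from those calls. The mean Crabp1 sum was 16.4 CPM in WT and 21.0 in Q140, of which the called intergenic peak held 2.01 and 5.05 CPM. Rxrg held 130 to 163 CPM in WT and 114 to 148 CPM in Q140, Rara 84.7 to 95.4 and 86.4 to 102, Rarg 71.2 to 97.3 and 69.3 to 88, and Rxra 81 to 95.8 and 77 to 98.8 CPM, all with overlap. These sums were not tested. The sums of Rarb in Msh3KO (404 to 527 CPM) and in Q140_Msh3KO (384 to 471 CPM) overlapped both.

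Loss of Msh3 on the wild-type background moved no member past the test. In Msh3KO against WT, edgeR called 0 of 164 peaks, against 0.013% of all tested peaks, and DESeq2 and limma-voom called 0 members as well. In edgeR 5 of the 164 had an unadjusted p under 0.05. The share of all tested peaks under that unadjusted limit was not taken, here or in the comparisons below, so these counts have no background beside them. The Rarb median was -0.02, and the strongest Rarb peak had a log2 fold change of -0.18 ± 0.13 (SE). The Crabp1 intergenic peak had a value of 0.13 ± 0.26 and the called Rxra peak one of 0.05 ± 0.12 (SE). Of the Rxrg peaks 19 of 20 lay below 0 (median -0.15) and of the Rxra peaks 5 of 19 (median 0.11), against 49.5% of all tested peaks.

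In Q140 animals without Msh3, 1 member peak was more accessible than in Q140, the Rarb peak of smallest p in Q140 against WT. At chr14:16746598-16747446 the Q140_Msh3KO libraries (8.04 to 12.3 CPM) all exceeded the Q140 libraries (5.08 to 7.64 CPM), and the log2 fold change was 0.65 ± 0.14 (SE, edgeR adjusted p = 0.0213). This was 1 of 164 member peaks higher and 0 lower (0.61%), a share close to the 0.529% of all tested peaks called in either direction. Of all tested peaks 0.31% were called higher. Among the 95 Rarb peaks, the gene that held the call, the share was 1.05%. The call was lost without any one of 7 of the 12 Q140 and Q140_Msh3KO libraries, at adjusted p-values up to 0.0815 and log2 fold changes down to 0.56, and without Q140 F2 and Q140_Msh3KO M1 together, at 0.65 and an adjusted p of 0.0861. The Crabp1 intergenic peak had a log2 fold change of -0.67 ± 0.21 (SE) in this comparison, which missed the threshold (edgeR adjusted p = 0.146). This comparison and Q140 against WT share the Q140 libraries, so opposite signs in the 2 are not independent.

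Q140_Msh3KO against Msh3KO gives the effect of the Q140 allele in animals without Msh3, and it shares no animals with Q140 against WT. Here edgeR called 0 of 164 member peaks, against 0.116% of all tested peaks, and DESeq2 and limma-voom also called 0 members. An unadjusted p under 0.05 in edgeR was found at 12 members, with no share over all tested peaks to set beside it. Of the 95 Rarb peaks 66 (69.5%) lay below 0, with a median of -0.08, against 51.7% and a median of -0.01 for all tested peaks. At the 16 peaks called in Q140 against WT the sign was the same in 16 of 16 and the size smaller in 16 of 16. Their median log2 fold change was -0.62 with Msh3 and -0.27 without it, and the median ratio of the second to the first was 0.45. The 15066 peaks called over the whole table had the same sign in 90.6% and a smaller size in 98.8%, with a median ratio of 0.36. Since the 16 were picked for passing in the first comparison, a smaller size in the second supports nothing by itself, and the values of all called peaks, picked in the same way, are given beside them.

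**Figure D4:**
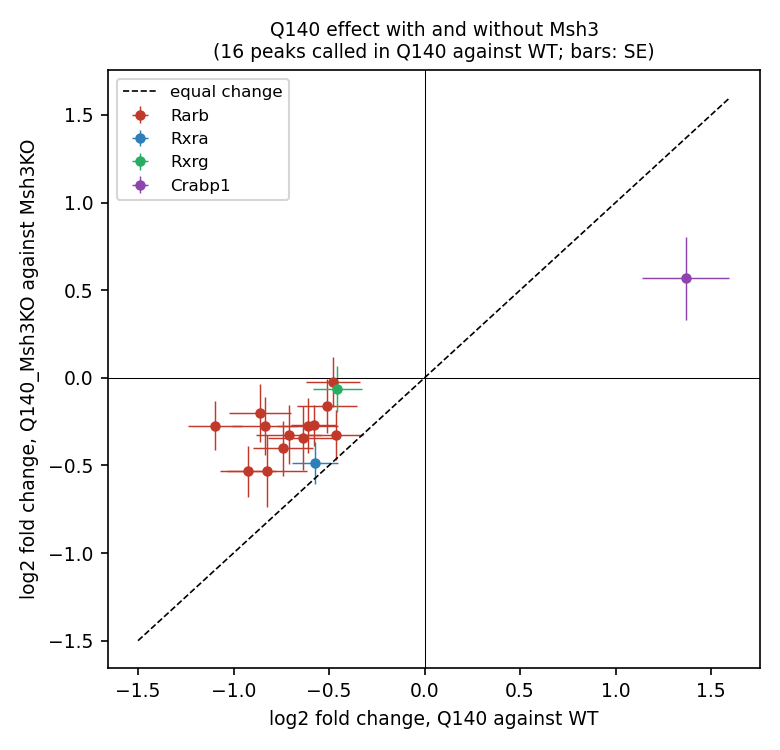
Log2 fold change with SE of the Q140 allele in animals with Msh3 (horizontal axis) and in animals without it (vertical axis) at the 16 called member peaks, coloured by gene; the dashed line marks equal change. All 16 points lie on the same side of 0 on both axes and nearer to 0 on the vertical axis.

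The difference between these 2 effects was tested directly as an interaction, and 0 of 164 members passed in edgeR, DESeq2 or limma-voom. Of all tested peaks edgeR called 0.0226%. An unadjusted p under 0.05 in edgeR was found at 9 members, with no share over all tested peaks to set beside it. At the strongest Rarb peak it was -0.83 ± 0.20 (SE, edgeR adjusted p = 0.129) and at the Crabp1 intergenic peak 0.80 ± 0.33 (adjusted p = 0.558). At the called Rxra peak it was -0.09 ± 0.17 (adjusted p = 0.973), the effects being -0.57 with Msh3 and -0.48 without it. In Q140_Msh3KO against WT, edgeR, DESeq2 and limma-voom called 0 of 164 members, where edgeR called 0.525% of all tested peaks. An unadjusted p under 0.05 in edgeR was found at 21 members, again without a share over all tested peaks. The smallest adjusted p there was 0.0562, at the Rarb peak chr14:16737839-16738186, with a log2 fold change of -0.56 ± 0.15 (SE). In the same comparison 67 of 95 Rarb peaks (70.5%) lay below 0, with a median of -0.12, against 51.2% of all tested peaks.

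The effect of Q140 was compared between the sexes with genotype by sex terms. Of 164 members 0 differed in edgeR, DESeq2 or limma-voom, and edgeR called 0% of all tested peaks. An unadjusted p under 0.05 in edgeR was found at 5 members, without a share over all tested peaks beside it. At the strongest Rarb peak mean accessibility went from 15.1 to 6.48 CPM in females (WT to Q140) and from 13.9 to 7.03 CPM in males, 3 animals each. At the Crabp1 intergenic peak it went from 2.11 to 4.61 CPM in females and from 1.9 to 5.5 CPM in males. The Q140 females include Q140 F2, which had 1.47% of its counts on the X chromosome, where the other females had 1.72% or more. Its sex label is thus in doubt, and so are these female means. Without Q140 F2 the sex comparison also called 0 members.

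The members sit in a pathway whose other genes were grouped in 5 lists. Among enzymes that make, store or degrade retinoids, 7 peaks were higher and 10 lower of 106 in Q140 against WT (16%, in 9 of 18 genes with a peak), against 10.3% of all tested peaks, with a list median of -0.05. For retinoid binding and uptake proteins 1 was higher and 1 lower of 56 (3.57%), the lower one at Fabp5, a fatty acid binding protein that can carry retinoic acid (-0.79 ± 0.23, SE, edgeR adjusted p = 0.019). The higher one was at Ttr, the carrier of thyroid hormone and retinol-binding protein in blood and cerebrospinal fluid (0.66 ± 0.21, SE, edgeR adjusted p = 0.0362). The Fabp5 call was lost without any one of 4 libraries and the Ttr call without any one of 11. The Fabp5 peak is intergenic, at -69037 bases from the Fabp5 start. The Ttr peak is annotated as intronic and lies at -37887 bases from the Ttr start. Receptors that pair with RXR had 3 higher and 5 lower of 78 (10.3%), coactivators and corepressors 10 higher and 8 lower of 190 (9.47%), and genes known to respond to retinoic acid 4 higher and 7 lower of 100 (11%). The last list shares Cyp26b1 and Dhrs3, among others, with the first. Of 37 promoter or 5′ UTR peaks in 33 of these 59 genes, 1 was called, that of Dhrs3.

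The smallest p in the 5 lists was at Cyp26b1, which encodes an enzyme that degrades retinoic acid. At chr6:84783974-84784425, annotated as intronic and at -190291 bases from the Cyp26b1 start, the WT libraries held 1.02, 2.03 and 3.08 CPM and the Q140 libraries 4.37, 5.98 and 8.1 CPM. The groups did not overlap, and the log2 fold change was 1.61 ± 0.21 (SE, edgeR adjusted p = 6.24e-07). Msh3KO held 1.55 to 4.05 CPM and Q140_Msh3KO 2.53 to 4.06 CPM, both below every Q140 library. In Q140_Msh3KO against Q140 the peak fell by 0.94 ± 0.19 (SE, edgeR adjusted p = 0.00921), in Q140_Msh3KO against Msh3KO its log2 fold change was 0.05 (adjusted p = 0.995), and the interaction passed at 1.56 ± 0.30 (SE, adjusted p = 0.0389). Without Q140 F2 and Q140_Msh3KO M1 both calls were lost, at -0.92 (edgeR adjusted p = 0.0645) and 1.53 (adjusted p = 0.169), while Q140 against WT still passed (1.63, adjusted p = 2.74e-06). The interaction call was also lost in limma-voom, with no robust estimation and without any one of 16 of 24 libraries (adjusted p up to 0.109). Since the peak was picked for its p in Q140 against WT, a difference that the interaction contains, the size of the interaction depends on that choice. Of the 13 Cyp26b1 peaks 4 were higher and 1 lower in Q140 against WT.

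The leading peaks of 3 other enzymes were lower in Q140. Rdh10, which oxidises retinol on the way to retinoic acid, fell by 0.67 ± 0.13 at an intergenic peak (SE, edgeR adjusted p = 0.000284), from 18.2 ± 2.93 CPM in WT to 11.4 ± 1.88 in Q140 (SD, n = 6). Rdh11, another retinol dehydrogenase, fell by 0.62 ± 0.12 (SE, edgeR adjusted p = 0.000291), with 13.4 to 17.4 CPM in WT and 9.15 to 11.6 in Q140, without overlap. Dhrs3, which returns retinal to retinol and is induced by retinoic acid, had 4 of 20 peaks lower and 0 higher, the leading one by 0.90 ± 0.22 (SE, edgeR adjusted p = 0.00535). Its promoter peak chr4:144892134-144892917, added because it was the 1 called promoter, fell by 0.52 ± 0.14 (SE, edgeR adjusted p = 0.00807), from 10.1 ± 1.76 to 7.11 ± 0.810 CPM (SD, n = 6), and lost its call without WT F3 or WT M3 (adjusted p up to 0.0541). The leading peak is the one with the smallest p, and the median log2 fold change over all peaks of the gene was 0.02 for Rdh10, 0.05 for Rdh11 and -0.20 for Dhrs3.

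**Figure D5:**
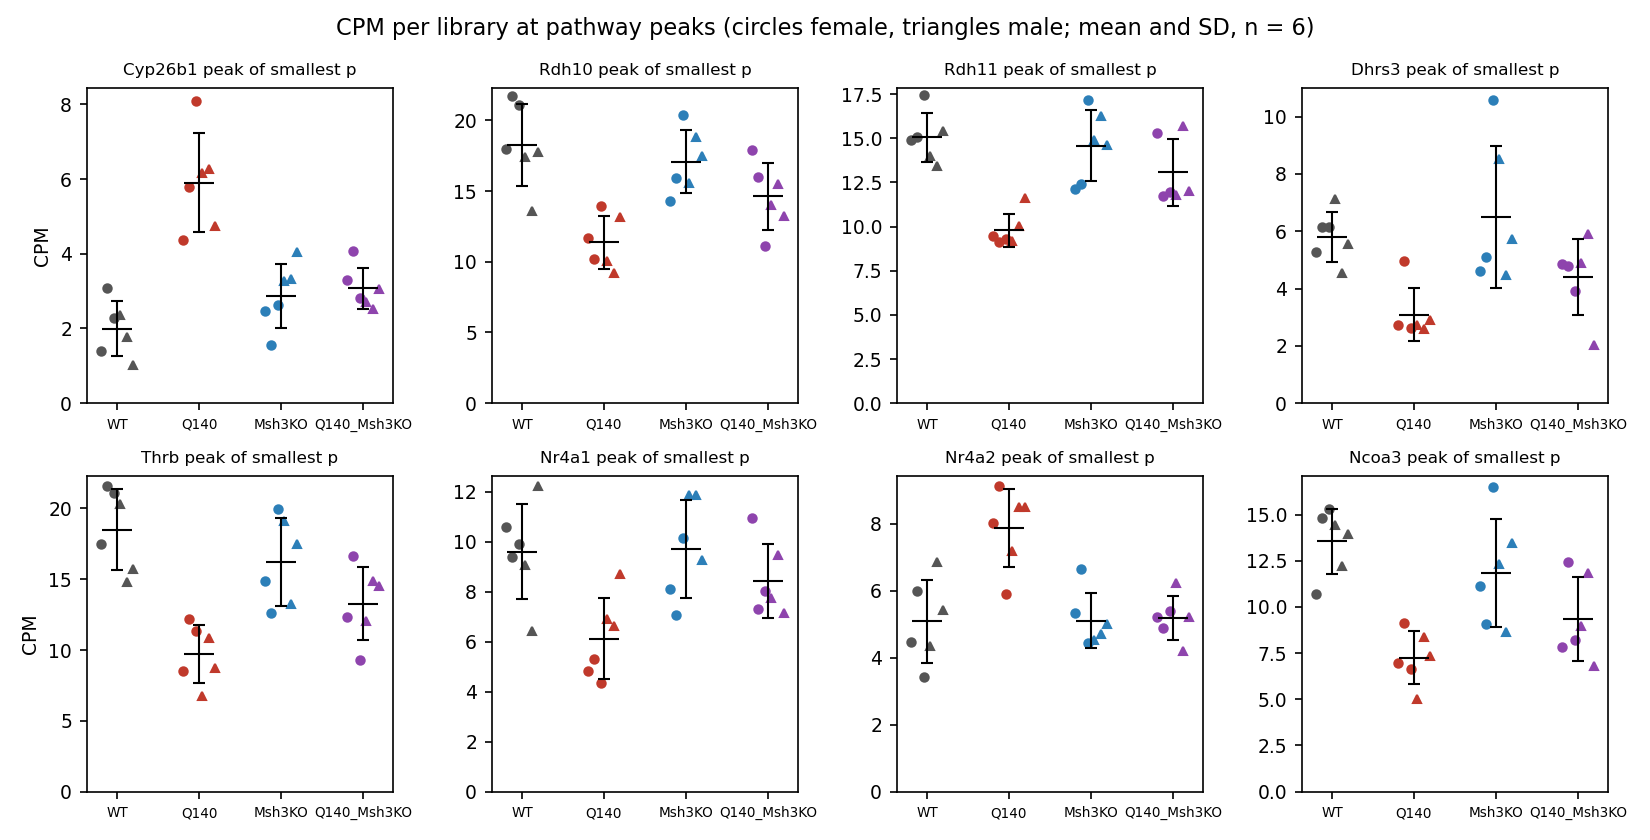
CPM (vertical axis) in each library by genotype (horizontal axis) at the peak of smallest p of 8 pathway genes, circles for females and triangles for males, with the mean and SD of 6 as a line and bar. Cyp26b1 and Nr4a2 are higher in Q140 than in WT and the other 6 are lower.

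Among partners of RXR, Thrb, which encodes thyroid hormone receptor β and is the next gene along chromosome 14 from Rarb, had 3 lower and 1 higher of 29 peaks. Its leading peak, chr14:17923056-17924038, held 14.8, 18.9 and 21.5 CPM in WT and 6.75, 9.79 and 12.2 CPM in Q140, without overlap, and fell by 0.92 ± 0.15 (SE, edgeR adjusted p = 1.89e-05). The Thrb promoter peak had a log2 fold change of -0.07 ± 0.12 (SE). Nr4a1 and Nr4a2 encode activity-induced orphan receptors that pair with RXR, and their leading peaks moved in opposite directions. That of Nr4a1 fell by 0.67 ± 0.16 (SE, edgeR adjusted p = 0.00271), and that of Nr4a2 rose by 0.63 ± 0.15 (SE, adjusted p = 0.00334). Nr1h4, which encodes the bile acid receptor, rose by 0.76 ± 0.20 at 1 of 3 peaks (SE, adjusted p = 0.00992), a call lost without WT M2.

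Coregulators also moved both ways. Tbl1xr1, a subunit of the corepressor complex, had 4 higher and 4 lower of 50 peaks, and its leading peak, far from the gene, rose from 2.68 ± 0.624 to 6.39 ± 0.756 CPM (SD, n = 6, log2 fold change 1.23 ± 0.19, SE, edgeR adjusted p = 7.55e-06). That peak fell by 0.72 ± 0.17 in Q140_Msh3KO against Q140 (SE, edgeR adjusted p = 0.0385), a call that was lost without any one of 10 libraries and without Q140 F2 and Q140_Msh3KO M1 (-0.70, adjusted p = 0.15). Ncoa3, a coactivator, had 1 higher and 1 lower of 15 peaks. Its leading peak, in intergenic DNA, fell by 0.89 ± 0.16 (SE, edgeR adjusted p = 8.32e-05). Ncoa2, a related coactivator, had 4 higher and 0 lower of 29 peaks, the leading one by 0.93 ± 0.19 (SE, edgeR adjusted p = 0.000778). Over all peaks of the gene the median log2 fold change was 0.05 for Ncoa3 and -0.04 for Ncoa2. Among genes that respond to retinoic acid, Nrip1, a corepressor, had 1 of 19 peaks lower, at -0.61 ± 0.17 (SE, adjusted p = 0.0119). Drd2, the dopamine receptor of indirect-pathway neurons, had 1 of 10 lower, at -0.52 ± 0.17 (SE, adjusted p = 0.0451), which was lost without any one of 20 of 24 libraries, in DESeq2, and without Q140 F2 and Q140_Msh3KO M1 (adjusted p = 0.076). Its 2 promoter peaks did not pass.

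The promoter of Cyp26a1, whose response element is printed above, held 5.23 ± 1.3 CPM in WT and 4.22 ± 0.776 CPM in Q140 (SD, n = 6), a log2 fold change of -0.33 ± 0.18 that did not pass (SE, edgeR adjusted p = 0.288).

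Peaks elsewhere that vary most like the 2 central Rarb peaks were listed over the 24 libraries by Pearson's r of log2 CPM, as a description in which the libraries share genotypes and depth. The strongest Rarb peak varied most like peaks named for Ext1 (r = 0.958), Gm4868 (0.947), Lcorl (0.946), Sprr4 (0.946) and Celf2 (0.937), none annotated as a promoter. Those 5 peaks had log2 fold changes in Q140 against WT from -1.64 to -0.84. The proximal Rarb peak varied most like peaks at the starts of Enox1 (r = 0.9004), Kcnab2 (0.893), Zfp119b (0.883) and Hivep2 (0.880), with log2 fold changes of -0.06, -0.07, 0.01 and 0.02.

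Close to the threshold in Q140 against WT, the members just inside were the Rarb peaks chr14:17057170-17058133 (adjusted p = 0.0293) and chr14:16717613-16718466 (0.0275), both from edgeR. Those just outside were the Rxrg peak chr1:167559985-167560917 (0.0546) and the Rara peaks chr11:98954295-98954859 (0.0562) and chr11:98941962-98942429 (0.0572). Within a genotype, all 60 pairs of libraries were further apart in their counts than sampling alone gives, with a chi-square per peak between 1.33 and 8.8, so each was kept as a sample of its own.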

How the data were processed

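The authors deposited raw counts of reads per peak for 147020 peaks and 24 libraries, each peak annotated with a gene, a class and a distance to a start. BWA, SAMtools, Picard, MACS2, featureCounts and GRCm38 are named per the submitters' processing notes; for versions, settings and pooling before peak calling, the entry is: not given in the sources used here. There were 0 other columns of sample values.

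Counts were analysed with edgeR 4.0.16 in R 4.3.3. Peaks passing filterByExpr with a count minimum of 10 (146155) were scaled by TMM and fitted with genotype and sex by robust quasi-likelihood. A peak was called at an adjusted p under 0.05, by Benjamini-Hochberg over all tested peaks. CPM are counts relative to 1e+06 counts of the TMM-scaled library. The interaction is the Q140 effect with Msh3 minus that without it. Total counts of 4372251 to 11736557 limit precision at weak peaks. The procedure was tested on simulated data.

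Named members were all called peaks, each gene's promoter peaks and its most accessible peak; other members were named where they stood near the threshold or apart in range, after their values were seen. Pathway genes were up to 4 per list by smallest p, of which some are not reported here. The members and lists were chosen with earlier results of these data known. Alternatives were other scalings and filters, DESeq2 1.42.0, limma-voom (limma 3.58.1), no sex term, a replicate block, fewer genotypes, no robust estimation and libraries left out. P-values set each difference against the spread among these libraries.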

Additional observations from a re-analysis of the deposited data

Results flagged for a closer look

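In 10 of 144 groups of 6 libraries examined, 1 library stood far from the other 5, where chance alone gives about 1 in 20 groups. The Rxrb promoter and the sum over Rxrb are the same values and count among both numbers separately. At the Rara promoter peak chr11:98960072-98960311, WT F2 had 3.08 CPM where the other WT libraries had 1.14 to 1.78, and Q140 F1 had 2.72 CPM where the others had 1.44 to 1.85. At the proximal Rarb peak, Msh3KO F3 had 29.7 CPM against 18.2 to 22.1 in the others.

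Among called Rarb peaks, Q140_Msh3KO F1 had 5.56 CPM at chr14:16737839-16738186, against 4.19 to 4.42 in the others. WT M3 had 11.8 CPM at the strongest peak, chr14:16746598-16747446, against 14.2 to 15.6, which places it nearer to Q140. Q140 F1 had 12.4 CPM at chr14:17057170-17058133, against 19.0 to 22.0, and without this library the call at that peak was lost.

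The Rxrb promoter, which is also the sum over Rxrb, had 45.3 CPM in WT F3 against 35.0 to 37.8 in the other WT libraries. The F3 library was also the highest there in Q140 (44.5 CPM), Msh3KO (45.9 CPM) and Q140_Msh3KO (45.1 CPM), so a high value was not particular to WT F3. At the Rxrg promoter peak chr1:167618024-167618544, Msh3KO F2 had 8.19 CPM against 4.33 to 5.49. Summed over all Rarb peaks, Q140_Msh3KO F3 had 384 CPM against 439 to 471.

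At the Cyp26b1 peak chr6:84783974-84784425 the interaction test of edgeR passed, at 1.56 on the log2 scale (adjusted p = 0.0389). Without Q140 F2 and Q140_Msh3KO M1 it was 1.53 (adjusted p = 0.169). The call was also lost in limma-voom, with no robust estimation and without any one of 16 of 24 libraries. This peak was picked for its p in Q140 against WT, a difference that the interaction contains.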

How the results depend on the processing

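Of 2028 values of 58 named member results under other settings, 1965 kept their side of the threshold, 38 lost a call and 25 gained one. The sign was kept in 1961 and changed in 67, all at peaks not called in either fit. The pathway peaks were put through the same settings after seeing the data: of 2178 values 2088 kept their side of the threshold, 76 lost a call, 14 gained one, and 32 uncalled values changed sign. The member count in Q140 against WT was 16 to 21 under the other settings and 11 to 20 with 1 library left out. The Rarb count was 13 to 14 and 8 to 14. The lowest of each came without WT F3, and the member count was 11 without Q140 M2 as well. The Rarb count included 1 higher peak without WT F2, and 1 without Q140 F1. In Q140_Msh3KO against Q140 the count of 1 became 0 without Q140 F2 and Q140_Msh3KO M1 together, and was 0 to 1 with 1 library left out. In Q140_Msh3KO against Msh3KO the count of 0 became 1 with a count minimum of 30, and was 0 to 1 with 1 library left out, being 1 without Msh3KO F1 or Msh3KO F2. In Q140_Msh3KO against WT it became 1 with scaling by total counts, 1 with no filter and 2 with a count minimum of 30, and was 0 to 0 with 1 library left out. The interaction count became 1 with a count minimum of 30, and was 0 to 1 with 1 library left out, being 1 without Msh3KO F3. Msh3KO against WT and the sex comparison gave 0 throughout. The cause of these changes was not tested.

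With a replicate block the members called in Q140 against WT were 18 (16 lower, 2 higher), 13 of them at Rarb, and the other genotype comparisons and the interaction kept their counts. The numbers do not pair the libraries: residual correlations ran from -0.365 to 0.458 over 36 same-number pairs, of which 6 were over 0.1. The block was not run for the sex comparison. At weak peaks depth limits what can be seen: uncalled Rarb peaks had a median SE of 0.22 on the log2 scale.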
